A study of Caenorhabditis elegans with 3 samples.

Results

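The genes described here encode digestive and lysosomal proteases and the lysosomal acid lipases of the nematode Caenorhabditis elegans. They are all protein-coding genes of the Ensembl annotation (WBcel235) named asp-, cpr-, cpl-, cpz- or lipl-, which gave 36 of 19973 nuclear protein-coding genes. The asp genes, 17 in number, encode aspartic proteases of the pepsin and cathepsin D type. A second class of 11 genes encodes cysteine cathepsins, with 8 cpr genes (cathepsin B type), 1 cpl gene (cathepsin L type) and 2 cpz genes (cathepsin Z type). The remaining 8 genes, named lipl, encode acid lipases. Of the 36 genes, 29 lie on chromosome V, 4 on X, 2 on IV and 1 on I. Membership went by name, and no expression was measured, so gut expression of each gene was not checked here.

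Chromatin immunoprecipitation followed by sequencing (ChIP-seq) located PQM-1 in whole animals at the L4 larval stage, with males and females pooled. All animals were of strain OP201 (unc-119(tm4063) III; wgIs201), whose transgene expresses PQM-1 fused at its C-terminus to GFP and FLAG. The group consists of 2 biological replicates and 3 libraries, since replicate 1 was sequenced as 2 technical libraries and replicate 2 as 1. No other genotype, stage or treatment is compared, and a peak from whole animals cannot be assigned to the intestine or to any other tissue. PQM-1 is a C2H2 zinc finger protein that acts in the insulin signalling pathway and is known from the intestine, where it moves into and out of the nucleus opposite to the forkhead factor DAF-16. It is associated with the word TGATAAG, the DAF-16-associated element, which contains the core bound by GATA factors such as the intestinal regulator ELT-2. Gut cells of the worm secrete proteases into the lumen to digest bacteria, and their lysosomes hold acid hydrolases that break down proteins and lipids.

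A gene was counted as having a promoter peak when a summit of the optimal list, the 4739 peaks that the authors kept after an irreproducible discovery rate (IDR) step on both replicates, lay between 1000 bp upstream and 200 bp downstream of its start. PQM-1 promoter peaks stood at 19 of the 36 genes (52.8%, exact 95% interval 35.5 to 69.6), against 2553 of all 19973 protein-coding genes (12.8%, 12.3 to 13.3). Cysteine cathepsin genes had the highest share, 8 of 11 (72.7%, 39.0 to 94.0), and asp genes had 10 of 17 (58.8%, 32.9 to 81.6). Of the lipl genes, lipl-5 alone had a peak (12.5%, 0.316 to 52.7), a share close to that of all genes. Differences between the classes were not tested. Intervals cover the number of genes and not read depth, which the peak lists do not give.

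The 3 strongest sites lay just upstream of cpr-3, cpr-4 and asp-2. The sequences around 8 summits with signals of 69.6 or more are shown, from all 3 classes, because they carry many of the stronger signals and the words found there. Each is 121 bp centred on the summit and ends at the start of the gene where that comes earlier (cpr-6), read 5′ to 3′ on the strand of the gene in WBcel235. Capitals mark TGATAAG and the GATA core (WGATAR: GATA with A or T before it and A or G after it) on either strand. The windows are cpr-3 at chrV:15298761-15298881 (minus strand), cpr-4 at chrV:6614530-6614650 (plus), asp-2 at chrV:9202866-9202986 (plus), lipl-5 at chrV:385609-385729 (plus), cpr-1 at chrV:11975401-11975521 (plus), asp-9 at chrIV:6185749-6185869 (plus), asp-5 at chrV:8272139-8272259 (plus) and cpr-6 at chrX:6607101-6607206 (plus).
cpr-3: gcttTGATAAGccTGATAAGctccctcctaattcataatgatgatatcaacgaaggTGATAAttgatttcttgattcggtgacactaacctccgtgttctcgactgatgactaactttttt
cpr-4: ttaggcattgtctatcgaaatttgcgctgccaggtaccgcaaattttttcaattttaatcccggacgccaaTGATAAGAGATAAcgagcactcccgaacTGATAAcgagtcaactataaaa
asp-2: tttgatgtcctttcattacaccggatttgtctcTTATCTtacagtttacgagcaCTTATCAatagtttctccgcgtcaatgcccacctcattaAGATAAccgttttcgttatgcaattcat
lipl-5: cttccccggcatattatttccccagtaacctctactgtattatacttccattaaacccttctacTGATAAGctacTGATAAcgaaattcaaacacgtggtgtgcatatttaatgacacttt
cpr-1: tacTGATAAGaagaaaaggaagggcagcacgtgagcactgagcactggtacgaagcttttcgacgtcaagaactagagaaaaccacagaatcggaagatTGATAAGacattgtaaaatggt
asp-9: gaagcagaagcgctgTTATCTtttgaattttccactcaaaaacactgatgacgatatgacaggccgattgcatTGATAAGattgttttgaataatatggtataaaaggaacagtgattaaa
asp-5: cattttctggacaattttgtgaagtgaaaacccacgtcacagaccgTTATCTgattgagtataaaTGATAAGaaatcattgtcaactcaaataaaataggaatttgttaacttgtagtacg
cpr-6: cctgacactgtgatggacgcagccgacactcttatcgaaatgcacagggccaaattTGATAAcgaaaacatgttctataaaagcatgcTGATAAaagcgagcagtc

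The signal of a peak is the authors' own value for it, set against a control, and is used here to rank peaks within a list. Across the 19 genes with a promoter peak the median signal was 62.7 (34.4 to 185), against 55.1 for all genes with one. As neighbouring genes can share a peak, the 19 genes rest on 18 distinct peaks with a median of 66.2, against 55.1 for all 2234 promoter peaks and 55.4 for all 4739 peaks. Of these 18, 12 were above the median of all peaks and 3 were among the strongest 10%. The weakest 20% of all peaks held 3 others, those of asp-4, asp-7 and cpl-1.

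**Figure D1:**
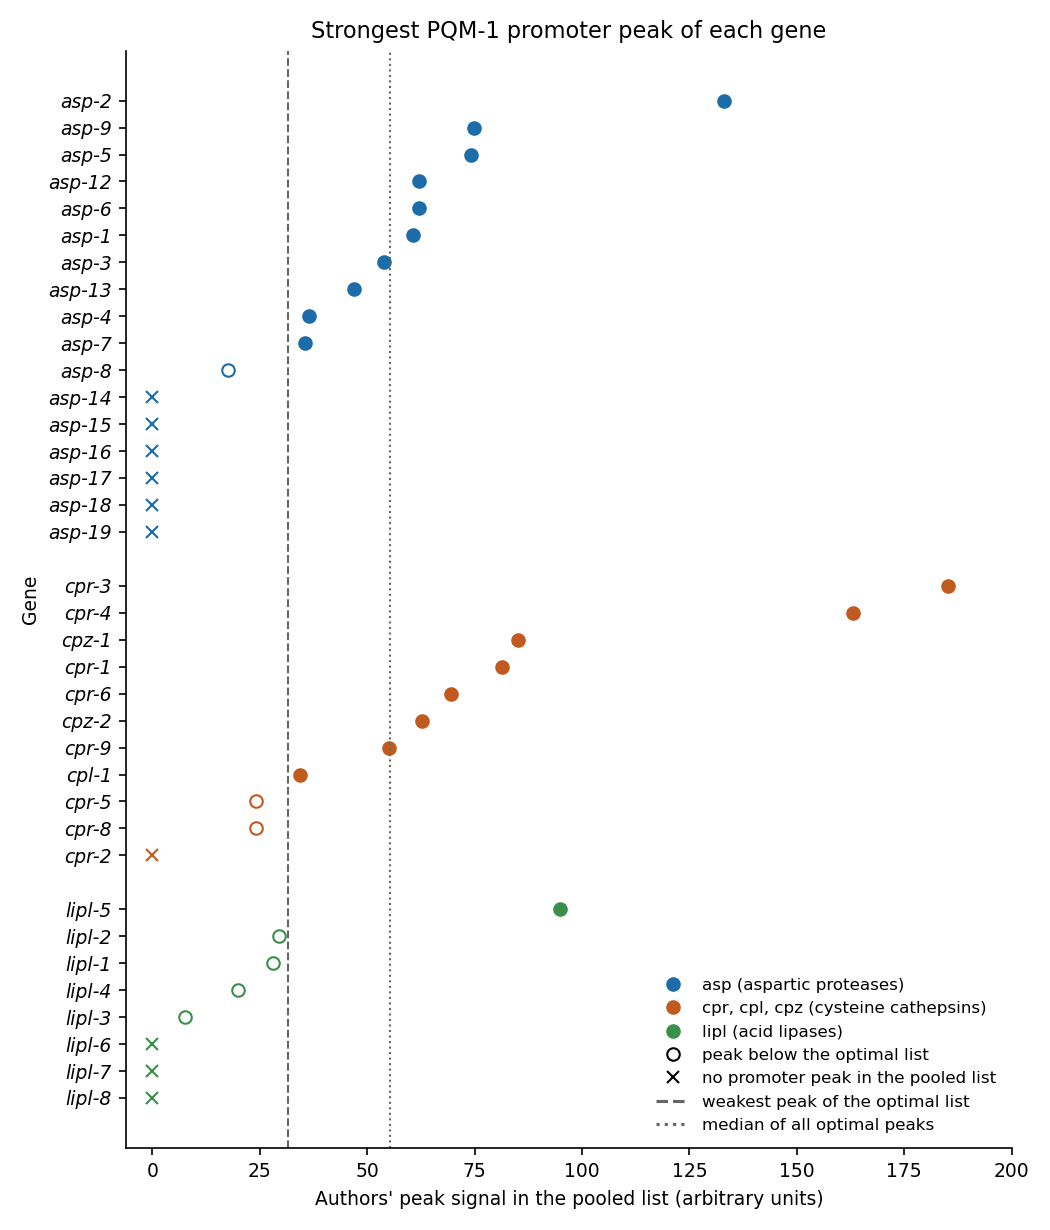
Each row is a gene and the x axis is the authors' signal of its strongest promoter peak in the list of both replicates pooled; filled points are in the optimal list, open points are weaker pooled peaks and crosses at 0 are genes with no promoter peak in the pooled list. Filled points run from 34.4 at cpl-1 to 185 at cpr-3, the dashed line is the weakest optimal peak (31.5) and the dotted line the median of all optimal peaks (55.4).

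Cysteine cathepsin genes with a peak had a median signal of 75.5, and cpr-3 and cpr-4 had the highest signals of all 36 genes. The cpr-3 peak (chrV:15298614-15298958; gene WBGene00000783) had a signal of 185, the 50th of 4739, with 62.2 in the list of replicate 1 and 131 in that of replicate 2. Its summit lay 121 bp upstream of the start, between protein-coding genes, and the GATA cores in its window number 3, of which 2 are TGATAAG. The cpr-4 gene (WBGene00000784) encodes a cathepsin B relative known as a secreted protein of irradiated worms. Its peak (chrV:6614441-6614708) had a signal of 163, the 84th, with 37.9 in replicate 1 and 129 in replicate 2, and its summit lay 84 bp upstream of the start. Positions are given from here on relative to the start, with a minus sign for upstream. Signals of the 2 replicates stand on separate scales, so they are read by rank: the cpr-3 peak was 33rd in replicate 1 and 55th in replicate 2, and the cpr-4 peak 337th and 56th.

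Of the other cpr genes with a peak, cpr-1 and cpr-6 had signals above the median of all peaks (55.4), and cpr-9 lay just below it. The gene cpr-1, a gut cysteine protease, had a peak of 81.3 at −90 bp (chrV:11975289-11975632), with 18.4 in replicate 1 and 70.0 in replicate 2. A peak of 69.6 stood at −46 bp of cpr-6 (chrX:6606989-6607332), with 35.1 in replicate 1 and 34.8 in replicate 2, and its window held 2 GATA cores but no TGATAAG. At cpr-9 (chrV:12002965-12003308) the summit lay in an exon, 84 bp past the start. Its signal was 55.0, with 28.3 in replicate 1 and 27.2 in replicate 2, and the nearest TGATAAG was 97 bp away on the upstream side. The replicates ordered these 3 differently: cpr-1 was 2146th in replicate 1 and 659th in replicate 2, whereas cpr-6 was 429th in replicate 1 and 2905th in replicate 2 and cpr-9 829th and 3931st.

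Both cathepsin Z genes had a peak close to the start, and cpl-1 had the weakest peak of all. At cpz-1, a gene needed for moulting, the signal was 85.1 at −57 bp on chromosome I, with 25.4 in replicate 1 and 56.7 in replicate 2. At cpz-2 it was 62.7 at −21 bp (chrV:13380996-13381339), a summit that also lay in the promoter of ifbp-1, with 30.2 in replicate 1 and 33.5 in replicate 2. The cpl-1 gene encodes a cathepsin L needed in embryos. Its peak at −246 bp (chrV:16595420-16595763) had a signal of 34.4, near the end of the optimal list at 31.5, with 10.4 in replicate 1 and 25.0 in replicate 2.

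The cathepsin genes without a promoter peak were cpr-2, cpr-5 and cpr-8. The genes cpr-5 and cpr-8 are divergent neighbours with 565 bp between them, and a pooled peak of signal 24.2, below the optimal list, lay between them at −4 bp of cpr-5 and −562 bp of cpr-8. That peak was present in both replicates, with 17.3 in replicate 1 and 14.4 in replicate 2. The promoter of cpr-2 held no pooled peak, and the nearest optimal summit was 39520 bp away.

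Aspartic protease genes with a peak ran from asp-2, at 133, down to asp-7, at 35.5, with a median of 61.4. The asp-2 peak (chrV:9202840-9203031; gene WBGene00000215) was the 229th of 4739, with 42.5 in replicate 1 and 94.97 in replicate 2, and its summit at −151 bp lay 3 bp from a TGATAAG. Next were asp-9 (chrIV:6185637-6185980), with 74.8 at −80 bp, and asp-5 (chrV:8272027-8272370), with 74.2 at −186 bp. Signals at asp-9 were 23.6 in replicate 1 and 54.6 in replicate 2, and those at asp-5 were 15.3 in replicate 1 and 60.5 in replicate 2. The asp-9 peak ranked alike in both, 1340th in replicate 1 and 1275th in replicate 2, whereas the asp-5 peak was 2848th in replicate 1 and 979th in replicate 2.

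A run of adjacent asp genes on chromosome V carried 2 of these peaks. The genes asp-6 and asp-12 are divergent with 272 bp between them, and a single peak of signal 62.1 (chrV:8268970-8269313) lay there, −205 bp from the start of asp-6 and −68 bp from that of asp-12. It had 23.0 in replicate 1 and 40.0 in replicate 2 and held 2 TGATAAG, one on each side of the summit. The gene asp-5 follows asp-12 on the same strand after 328 bp, and its own peak is the one described above. Which of asp-6 and asp-12 the shared peak belongs to cannot be told from its position.

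The remaining asp genes with a peak had lower signals than these. The gene asp-1, an intestinal protease gene, had a peak of 60.7 (chrV:19051489-19051832) with 15.0 in replicate 1 and 52.2 in replicate 2, and its summit at −909 bp was the farthest upstream of all. The genes asp-3 and asp-4 encode cathepsin D relatives known from necrotic death of neurons. At asp-3 (chrX:6790987-6791330) the summit lay in an exon at 95 bp past the start with a signal of 54.0, with 24.9 in replicate 1 and 29.3 in replicate 2. At asp-4 (chrX:13221458-13221801) the summit lay at −168 bp with 36.5, with 13.7 in replicate 1 and 21.8 in replicate 2. The gene asp-13 (chrV:8643084-8643427) had a signal of 47.0 at −63 bp, with 11.8 in replicate 1 and 37.0 in replicate 2. The asp-7 peak (chrV:3028050-3028393; −63 bp) had 35.5, and it rested mostly on replicate 2, with 32.9 there and the 3124th rank, against 3.97 and the 11686th rank in replicate 1.

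Asp genes without a promoter peak were asp-8 and asp-14 to asp-19. The promoter of asp-8 held a pooled peak of 17.6 at −87 bp with 7.50 in replicate 1 and 10.7 in replicate 2, below the optimal list. None of the other 6 had any promoter peak in the pooled list of 18821 peaks. In asp-14 an optimal summit of signal 42.5 lay 1286 bp past the start in its own intron (chrX:6445206-6445549). Upstream of asp-15, asp-16 and asp-17, which stand in a row before asp-1 on chromosome V, the nearest summit was a peak of 52.4 (chrV:19046854-19047197) at −2173, −4421 and −9704 bp from their starts. For asp-18 and asp-19 the nearest summit lay 11646 and 9341 bp downstream of their starts.

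Of the lipases, lipl-5 had a signal of 94.8, the fourth highest of the 18 peaks and 705th of 4739. This narrow peak of 103 bp (chrV:385604-385706; gene WBGene00022642) had 32.0 in replicate 1 and 56.6 in replicate 2, with the summit at −77 bp and a TGATAAG 7 bp from it. The genes lipl-1 to lipl-4, of which lipl-4 is known from longevity work and others from fasting, held weaker pooled promoter peaks that the optimal list left out. These had signals of 29.4 at 29 bp past the start for lipl-2, 28.1 at −83 bp for lipl-1, 19.9 at −771 bp for lipl-4 and 7.75 at 111 bp past the start for lipl-3. The lipl-2 peak had 10.8 in replicate 1 and 24.4 in replicate 2, and that of lipl-1 had 3.96 in replicate 1 and 23.5 in replicate 2. At lipl-4 the values were 5.10 in replicate 1 and 16.3 in replicate 2, and no peak of either replicate overlapped the lipl-3 peak. The promoters of lipl-6, lipl-7 and lipl-8 held no pooled peak.

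Outside the promoters, lipl-1 and lipl-7 had strong sites nearby. A peak of 79.8 lay 1899 bp from the start of lipl-1, past its 3′ end (chrV:12921713-12922056), and one of 74.2 lay at −1607 bp of lipl-7 (chrIV:10243258-10243601). The nearest optimal summits of the other lipases without a peak were at −3223 bp for lipl-4, 4611 bp for lipl-3, −24509 bp for lipl-8, −35088 bp for lipl-2 and 45233 bp for lipl-6.

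The low lipase count moved with the peak list used and with where that list ended. With 2 times as many pooled peaks (9478, the weakest at 13.8), 4 of 8 lipl genes had a promoter peak, beside 10 of 11 cysteine cathepsins and 11 of 17 asp genes, or 25 of all 36 (69.4%), against 23.9% of all genes. Of the strongest 4739 peaks of replicate 2 alone, promoters of 3 lipl genes held one (lipl-1, lipl-2 and lipl-5), with 20 of the 36 genes in all, against 12.7% of all genes. In the strongest 4739 peaks of replicate 1 alone the lipl count was also 3 (lipl-2, lipl-4 and lipl-5), with 22 of the 36 genes in all, against 12.7% of all genes. At lipl-4 this rested on a replicate 1 peak of 10.1 at −47 bp, the 4648th of that list, which does not overlap the pooled peak at −771 bp. Any pooled promoter peak, background peaks included, was found at 26 of the 36 genes (72.2%), against 35.2% of all genes. In the stronger 50% of the optimal peaks, 6 asp genes and 6 cysteine cathepsin genes had one, with 13 of the 36 genes in all, against 6.34% of all genes.

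**Figure D2:**
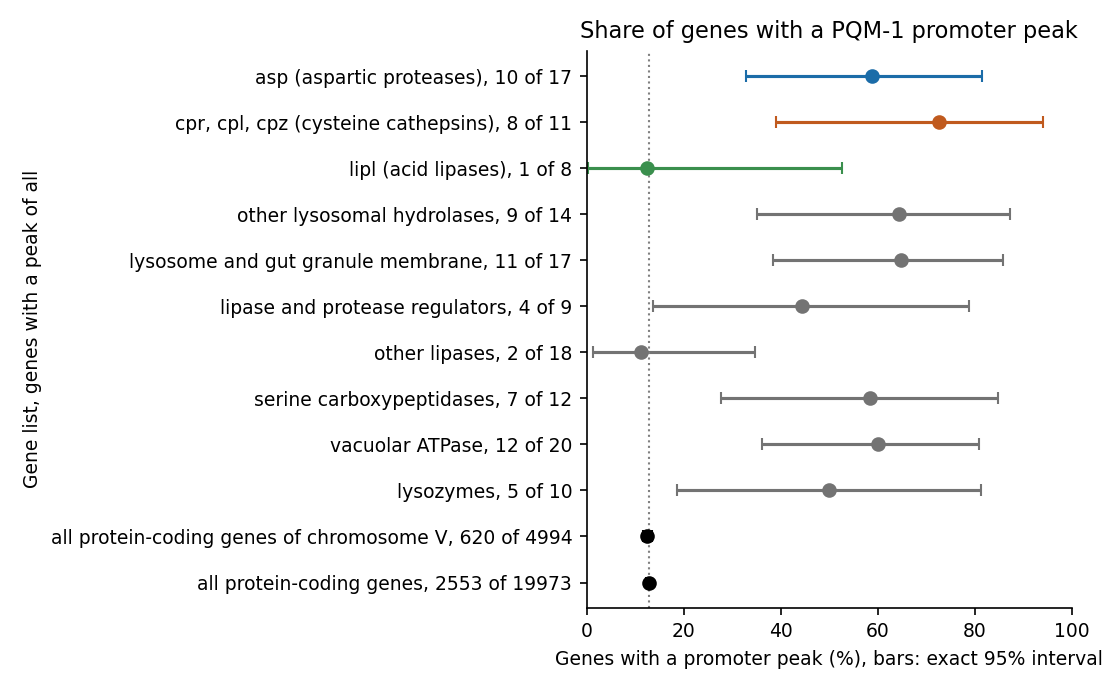
Points are the share of genes with a promoter peak in the optimal list (x axis, percent) for each list of genes, bars are exact 95% intervals over genes, and the dotted line marks all protein-coding genes (12.8%). Cysteine cathepsins (72.7%) and asp genes (58.8%) lie beside lists of lysosomal, serine carboxypeptidase and lysozyme genes at 50% to 64.7%. Genes for regulators lie at 44.4%, and lipl genes (12.5%) and other lipases (11.1%) lie near the line.

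Because most of these genes lie on chromosome V, the count was also taken there. On V, promoter peaks stood at 14 of 29 genes (48.3%, 29.4 to 67.5), namely 7 of 13 asp genes, 6 of 9 cysteine cathepsins and 1 of 7 lipl genes, against 12.4% of all 4994 protein-coding genes of V. Off V they stood at 5 of 7, the genes asp-3, asp-4, asp-9, cpr-6 and cpz-1, against 12.9% of all genes there. Most of the promoters can be told from the rest of the genome by sequence, as 24 of the 36 consist entirely of words of 36 bases that occur once. Such words do not separate divergent neighbours whose promoters overlap, as those of asp-6 and asp-12 or of cpr-5 and cpr-8. The lowest share of such words was 97.3% among genes with a peak, at cpr-6, against 83.4% among genes without one, at asp-17, and its part in the counts was not tested.

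Summits at these genes stood close to the start. Of the 19 genes with a promoter peak, 16 had the summit of their strongest one within 250 bp upstream of the start (84.2%), against 47.6% of all genes with one. Anywhere upstream of the start, the count was 17 of 19 (89.5%), against 90.8% of all genes with one. The exceptions were asp-1, farther upstream, and cpr-9 and asp-3, inside exons. Median distances were −80 bp for the 19 genes (−115.5 bp for asp genes and −70.5 bp for cysteine cathepsins), against −203 bp for all genes with a promoter peak. Of the other lists described below, lysosomal hydrolases had a median of −69 bp and serine carboxypeptidases −126 bp. Medians were −168 bp for lysosome membrane genes, −199 bp for lysozymes and −286 bp for vacuolar ATPase genes.

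**Figure D3:**
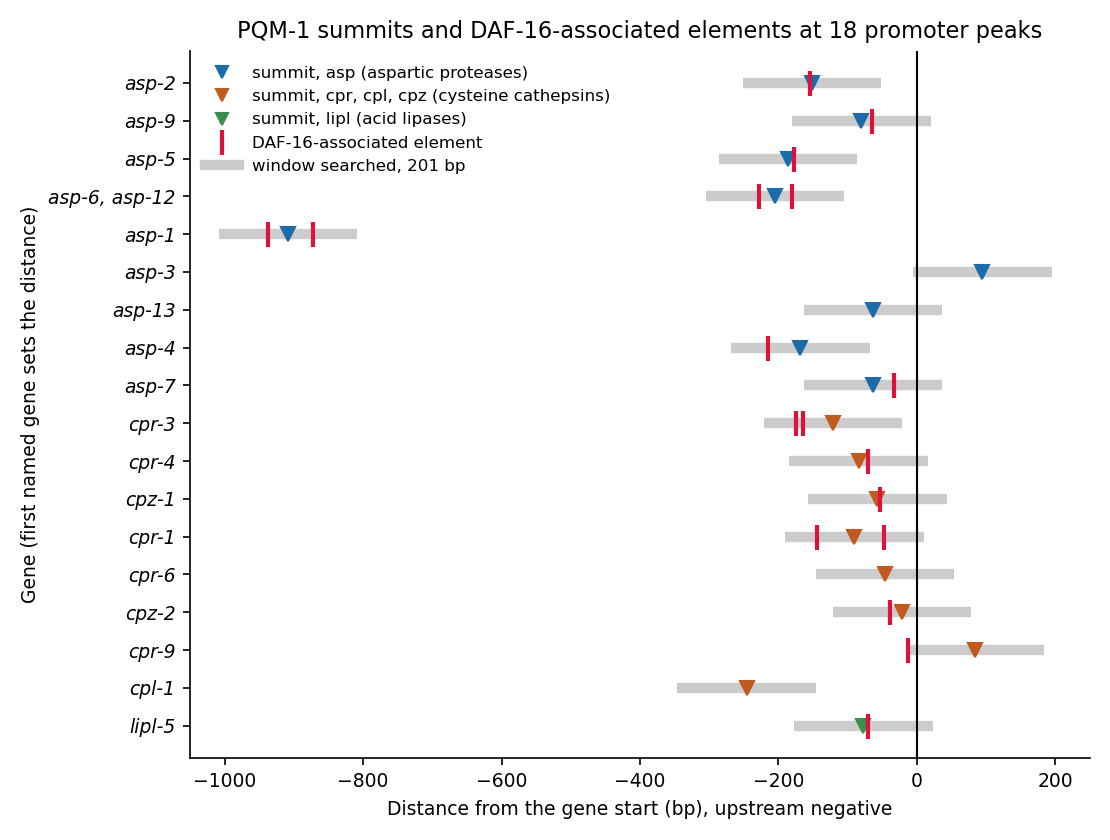
Each row is 1 of the 18 promoter peaks, the x axis is the distance from the gene start in bp (upstream negative), triangles are summits, red ticks are TGATAAG words on either strand and grey bars are the windows searched, which reach 100 bp to each side. Summits cluster between −246 and −21 bp apart from asp-1 (−909), cpr-9 (84) and asp-3 (95), and 14 of the 18 windows hold at least 1 red tick.

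The DAF-16-associated element was common under these peaks, as the printed windows show for 7 of 8. TGATAAG, searched on both strands up to 100 bp to each side of the summit, was present at 14 of 18 peaks (77.8%, 52.4 to 93.6), namely 7 of 9 asp peaks, 6 of 8 cysteine cathepsin peaks and the lipl-5 peak. It was present at 42.7% of all promoter peaks and 44.1% of all optimal peaks. The median distance of the nearest one from the summit was 20.5 bp (3 to 97), against 25 bp at all peaks. Windows with 2 of these words were those of cpr-3, cpr-1, asp-1 and the shared peak of asp-6 and asp-12. At cpr-3 both copies stand close together, as the first capitals of its sequence show. Outside these genes, the word was also at promoter peaks of other lists described below. Among other lysosomal hydrolases it was at asm-2, gba-4, asah-1, gba-2, asm-3, gba-1 and hex-1, but not at asah-2 or nuc-1. Among serine carboxypeptidases it was at pcp-1, pcp-3, ctsa-4.2, ctsa-3.1, ctsa-1.2 and pcp-4, but not at pcp-2. Of the vacuolar ATPase genes with a peak, only vha-6 had it. Lysosome membrane and lysozyme genes with a peak were mixed.

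Of the 18 peaks, those without TGATAAG were at cpr-6, asp-3, asp-13 and cpl-1. Their median signal was 50.5, against 74.5 for the 14 peaks with the word, and these are descriptions of few peaks. Each of them still held a GATA core, of which the word is a longer form: 2 at cpr-6, 2 at asp-3, 1 at asp-13 and 4 at cpl-1. All 18 windows held at least 1 GATA core (100%, 81.5 to 100), against 79.9% of all promoter peaks and 84.2% of all optimal peaks. A match describes the sequence and is not a measured binding site.

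Across whole promoters of 1201 bp, TGATAAG was more frequent where a peak was found. It was present in 16 of the 19 promoters with a peak (84.2%) and in 3 of the 17 without one (17.6%), the promoters of cpr-5 and cpr-8, which share sequence, and of asp-18. Over all genes the word was present in 53.2% of promoters with a peak and in 19.4% of those without. By class it was present in 9 of 17 asp promoters, 9 of 11 cysteine cathepsin promoters and 1 of 8 lipl promoters, that of lipl-5, against 23.7% of all promoters. The GATA core was in all 36 promoters, against 93.3% of all promoters.

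Every one of the 18 peaks was overlapped by at least 1 bp in the lists of both replicates. As the optimal list was made from both replicates, such overlap was largely set in advance. These lists are long, 24037 peaks in replicate 1 and 19029 nuclear peaks in replicate 2, and also hold background peaks. Among the strongest 4739 of each replicate, 17 of the 18 peaks were found in replicate 1, all but that of asp-7. In replicate 2, 17 were found, all but that of asp-4. The same shares over all optimal peaks are not given here, so these counts do not set the 18 peaks apart from the others. Median signals at the 18 peaks were 24.2 in replicate 1 and 46.1 in replicate 2, against 17.3 and 40.1 at all optimal peaks in the same lists. Across the 18 peaks the Spearman rho between replicates was 0.54, a description of peaks that were selected on the pooled signal of the same replicates.

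**Figure D4:**
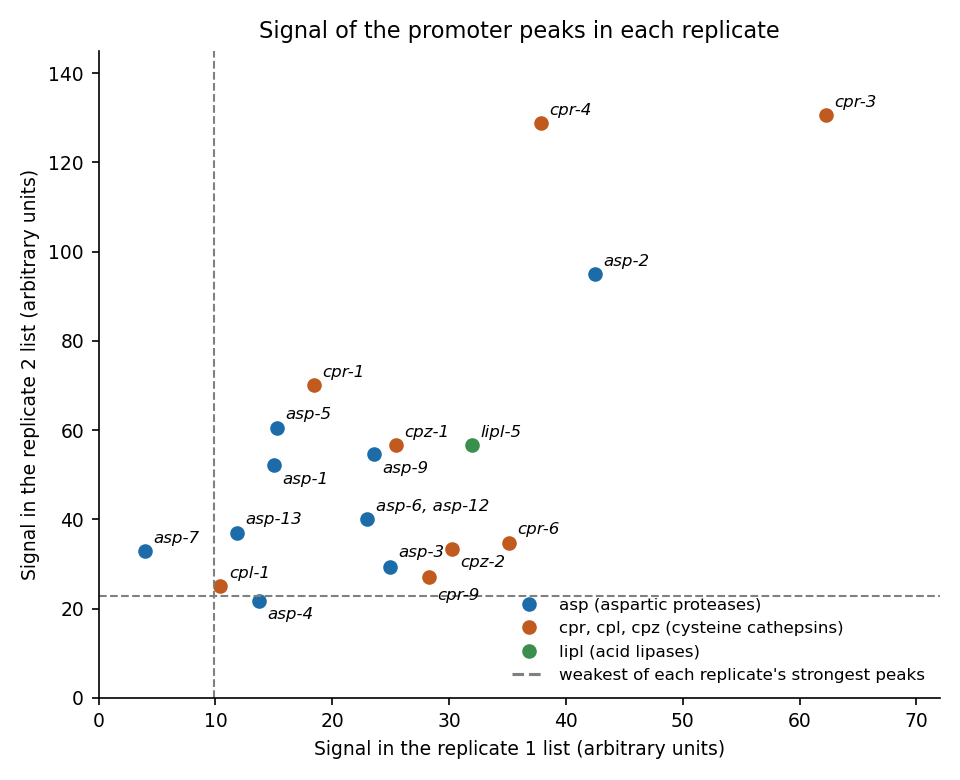
Each point is 1 of the 18 promoter peaks, with its signal in the replicate 1 list on the x axis and in the replicate 2 list on the y axis (separate arbitrary scales), and dashed lines mark the weakest of the strongest 4739 peaks of each replicate (9.88 and 22.8). The peaks of cpr-3, cpr-4 and asp-2 are the highest in both replicates, asp-7 lies left of the vertical line and asp-4 lies just below the horizontal one.

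Other genes of lysosomes and gut digestion gave shares like those of the protease classes, against 12.8% of all genes. Of 14 other lysosomal hydrolase genes, 9 had a promoter peak (64.3%, 35.1 to 87.2), with a median signal of 74.4. They include asm-2, for an acid sphingomyelinase, at 155, gba-4, for a glucocerebrosidase, at 92.7, asah-2 at 81.4 and nuc-1, for a lysosomal DNase, at 79.5. Of 17 genes for membrane proteins of lysosomes and gut granules, 11 had one (64.7%, 38.3 to 85.8), with a median of 68.6. They were led by the ABC transporter genes haf-9 at 220 and haf-4 at 93.2, with lmp-2 at 90.3 and pgp-2 at 74.2. Of 20 vacuolar ATPase genes, whose pump acidifies the lysosome, 12 had one (60%, 36.1 to 80.9), with a median of 65.4. Signals were 117 at vha-6, the intestinal subunit gene, 108 at vha-8, 81.2 at vha-14 and 86.5 at vha-13. The vha-8 summit also lay in the promoter of C17H12.2.

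Serine carboxypeptidases and lysozymes formed further lists outside the 36 genes. Of 12 serine carboxypeptidase genes, 7 had a promoter peak (58.3%, 27.7 to 84.8), with a median of 77.3, against 12.8% of all genes. They were pcp-1 at 196, pcp-3 at 109, ctsa-4.2 at 87.2, ctsa-3.1 at 77.3 and 3 with weaker signals. Of 10 lysozyme genes, 5 had one (50%, 18.7 to 81.3), among them lys-8 at 179, lys-1 at 113, lys-2 at 100.9 and lys-4 at 67.4. Other lipases, of the lips, fil and cytosolic kinds, gave a share close to that of the lipl class and of all genes, with 2 of 18 (11.1%), lips-5 at 68.4 and fil-2 at 36.3. Of the cystatin genes, whose products inhibit cathepsins, cpi-1 had a peak at 37.4 and cpi-2 had none.

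Among 9 genes for regulators of these enzymes, 4 had a promoter peak (44.4%, 13.7 to 78.8), against 12.8% of all genes. The gene elt-2, for the GATA factor of the intestine, had a signal of 136 at −429 bp, and elt-7, for a second gut GATA factor, had 86.6 at −83 bp. The nuclear receptor genes nhr-80 and nhr-49 had 81.7 at −558 bp and 66.3 at −454 bp. The elt-7 summit also lay in the promoter of C18G1.9, and that of nhr-80 in the promoter of H10E21.1. No promoter peak of the optimal list stood at hlh-30 and mxl-3, whose products control lysosomal lipase genes on fasting, or at daf-16 and pqm-1 themselves. The same held for lbp-8, a lipid chaperone gene that acts with lipl-4. In the pooled list, background peaks included, 7 of the 9 had a promoter peak (77.8%), against 35.2% of all genes. For 3 of these it was below the optimal list. Only the outermost start of each gene was searched.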

How the data were processed

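PQM-1 ChIP-seq peak lists on genome build ce11 were used: the optimal IDR list, the pooled list and the list of each biological replicate. The readmes deposited beside the lists say that the replicate and pooled lists served as IDR input. Each peak's signal is the deposited value, formed against a control library per those readmes, and has its own scale in each list. Of the peak caller, the aligner and the IDR threshold, each was not given in the sources used here. Lists built on ce10 were not used here. Peak lists hold no read counts, so depth per library is unknown here and no interval covers it.

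Summits were assigned to promoters (from 1000 bp before to 200 bp past the outermost start) of Ensembl release 115 genes. Shares carry exact Clopper-Pearson intervals at 95% over genes or peaks. Words were searched in WBcel235, the same build as ce11, on both strands. With 1 group there is no comparison of conditions, and no p-value was computed. Members without a promoter peak are named with their pooled or nearest peak, and up to 4 genes of every other list by signal. Members and lists were chosen with earlier results of these data known. Work was done in Python 3.11.15 with numpy 2.4.6, scipy 1.17.1 and matplotlib 3.10.9, and the counting was tested on simulated data. The alternatives tried changed the list's cut-off, the replicates used, the summit definition, the promoter size, the gene start and the word window.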

Additional observations from a re-analysis of the deposited data

How the results depend on the processing

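Of 98 alternative values, 91 stayed within 1.5 times the reported count or within the 95% interval of the reported median (by order statistics) or share (exact), and 7 did not. These bounds are wide, as a total of 13 against 19 genes counted as within them. Peak midpoints gave the reported value again for every result they were tried on, as most of these peaks have the summit near their middle. The lipl median rests on 1 gene, so any other value of it counts as moved. The number of asp genes with a promoter peak was 6 under the stronger 50% of optimal peaks. The lipl count was 4 and its median signal 28.7 with 2 times as many pooled peaks, and 2 and 84.5 with promoters from 2000 bp upstream, which take in lipl-7. The share of all genes was not computed for promoters of other sizes, so that count of 2 has no background beside it. Leaving out replicate 1 or replicate 2 gave a lipl count of 3 each time. The total ran from 13 of the 36 genes under the stronger 50% (6.34% of all genes) to 25 with 2 times as many peaks (23.9% of all genes), and was 20 without replicate 1 and 22 without replicate 2. Promoters from 500 bp upstream left out asp-1, and giving each summit to its nearest start left out asp-6. The share of peaks with TGATAAG ran from 58.3%, without replicate 2, to 91.7%, under the stronger 50%. The share over all peaks was not recomputed under these settings, so it is unknown whether all peaks moved alike. Median signals were not recomputed on single-replicate lists, whose scales differ. The causes of these moves were not tested beyond the settings themselves. No paired analysis was possible because there is 1 group. Read depth is unknown here and limits every share by an amount that cannot be given.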

Other observations

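The E-box CACGTG, the word bound by HLH-30 and MXL-3, was searched on both strands. It was present in 5 of 8 lipl promoters of 1201 bp (62.5%, exact 95% interval 24.5 to 91.5), those of lipl-1, lipl-2, lipl-3, lipl-5 and lipl-7, in 4 of 11 cysteine cathepsin promoters and in 2 of 17 asp promoters, against 18.4% of all promoters. Within 100 bp of the summits it was present at 2 of 18 peaks (11.1%), those of lipl-5, 34 bp from the summit, and cpr-1, against 5.91% of all promoter peaks. The DAF-16 word GTAAACA was at 0 of 18 peaks, which allows a share of up to 18.5% (exact 95% interval), against 4.92% of all promoter peaks, and it was in 3 of the 36 promoters, against 15.1% of all promoters. These are descriptions of sequence in few genes, and no factor other than PQM-1 was measured.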
